A study of Homo sapiens with 16 samples.

Results

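Amino acids enter and leave cells, and move across the lysosomal membrane, through carrier proteins of several solute carrier (SLC) families. All listed genes whose symbol places them in SLC1, SLC3, SLC6, SLC7, SLC36, SLC38 or SLC43 were taken as members, whatever their measured values, which gave 26 of the 14857 genes listed. SLC38 had 7 of them, SLC7 had 6, SLC1 had 4, SLC6 and SLC43 had 3 each, SLC36 had 2 and SLC3 had 1. A family's carriers that the deposited table does not list were not analysed here. The label holds with exceptions known from textbooks: SLC6A8 carries creatine, SLC6A6 carries taurine and beta-alanine, and SLC43A3 is known as a carrier of purine nucleobases.

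The members were measured by RNA-seq of MDA-MB-231, a line of triple-negative breast cancer cells with mesenchymal features. Every clone carried the tet-off system, so that the introduced gene is silent while doxycycline is present. EV_A and EV_B are clones transfected with an empty vector, and TTP_E11 and TTP_H3 are clones transfected with tristetraprolin (TTP), the RNA-binding protein encoded by ZFP36. Each clone gave 4 biological replicates, for 16 libraries. All 4 clones were grown in DMEM with 10% FBS, penicillin, streptomycin, 400 µg/mL G418 and 100 µg/mL hygromycin B. Doxycycline at 2 µg/mL is stated only for the TTP cells, and the selection drugs and doxycycline were then removed for 24 h or longer. Each line is 1 stably transfected clone. The history of a clone, its time in doxycycline and the expression of TTP therefore cannot be told apart. P-values from models that separate the 4 clones measure only the spread between cultures of a clone, with 2 clones in each arm. The fit of reads summed per clone instead measures the spread between the clones of an arm. The fit with 2 groups only and the permutation tests of all TTP against all EV libraries mix both spreads. As the libraries come from bulk cultures, fewer cells with a transcript and less of it per cell cannot be told apart either.

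CD98 heavy chain (SLC3A2) forms heterodimers with light chains of SLC7, of which LAT1 (SLC7A5) exchanges large neutral amino acids such as leucine and xCT (SLC7A11) imports cystine against glutamate. ASCT2 (SLC1A5) and the system A carriers (SLC38A1, SLC38A2) bring in glutamine and other small neutral amino acids, and carriers of the lysosome report and release amino acids to the mTORC1 pathway. TTP binds AU-rich elements in the 3′ UTR of mRNAs and promotes their decay, and many of these carriers are also induced by ATF4 when amino acids run short.

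The heptamer TATTTAT, the core of the element bound by TTP, was searched on the sense strand of annotated 3′ UTRs (GENCODE 29, GRCh38). It is shown here, in capitals within 30 bases of each 3′ UTR and printed along the mRNA, for the 3 lower members with the largest changes that passed and for the 1 concordantly higher member that hold it.
SLC7A5, chr16:87830272-87830301, minus strand: ggcaccatgttTATTTATttccagtggtca
SLC38A2, chr12:46358783-46358812, minus strand: aactgtaatgtTATTTATagaacaacatta
SLC38A2, chr12:46358737-46358766, minus strand: ctatttttcaaTATTTATgataatctatgt
SLC6A6, chr3:14486927-14486956, plus strand: gtttttctatgTATTTATggttgccgtttg
SLC7A6, chr16:68297813-68297842, plus strand: ttatattccctTATTTATtgatatttagtc
SLC7A6, chr16:68300516-68300545, plus strand: taagtccttggTATTTATaatcaatgctga
SLC7A5, SLC38A2 and SLC6A6 stood lower in the TTP clones, whereas SLC7A6 stood higher. A match is a description of the letters in the annotated transcript and not of binding.

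Libraries held between 14380767 and 22066098 reads on the listed genes, and the members together took 0.273% to 0.449% of them. ZFP36 stood at 213 to 282 normalized counts (reads divided by the size factor of the library) in the 8 EV libraries and at 10160 to 15041 in the 8 TTP libraries, although the titles of 7 of the TTP libraries call them EV. Replicate 4 of EV_B and replicate 3 of TTP_H3 stood apart from their own clones, with root mean square log2 distances of 0.190 and 0.232 to the other libraries of the clone against 0.112 to 0.158 elsewhere, and results that rest on them are also given without both. All 9 markers of MDA-MB-231 were listed, whereas ESR1, CDH1, PTPRC, PECAM1 and DCN, which define luminal, epithelial, immune, endothelial and fibroblast cells, were not. The 9 markers of MDA-MB-231 summed to 136800 to 140350 normalized counts in EV and 111400 to 115860 in TTP libraries, and the listed luminal markers (ERBB3 and GATA3) to 216 to 288 and 336 to 423. The 3 listed epithelial markers (EPCAM, CLDN3 and CLDN4) summed to 2423 to 3299 normalized counts in EV and 1492 to 2059 in TTP libraries, and KDR, the listed endothelial marker, stood at 33.3 to 55.5 and 95.1 to 164. The listed immune markers (CD68 and CD14) summed to 31.0 to 55.0 in EV and 30.4 to 45.8 in TTP libraries, and the listed fibroblast markers (COL1A1, COL1A2 and PDGFRB) to 325 to 670.1 and 391 to 649. The part of these differences in the carriers' values was not tested.

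Between the arms, 19 of the 26 members passed the test at an adjusted p below 0.05 (limma on log2(normalized count + 1), Benjamini-Hochberg over all genes). Of these, 10 were higher and 9 lower in the TTP clones. Over all genes 70.0% passed, 35.4% higher and 34.6% lower, so the members' share was near the background. With reads scaled by the library totals over the listed genes, the higher share of all calls was 61.4% instead of 50.6%. The median change of the members was -0.03 on the log2 scale and that of all genes was 0.00. By the adjusted p of the authors' deposited table, 15 members fall below the same threshold, 8 higher and 7 lower, and limma called each of these with the same sign. SLC1A5, SLC38A1, SLC3A2 and SLC43A3 were not below it in that table. These 4 calls rest on the model that separates the clones: with 2 groups only, limma gave adjusted p = 0.338, 0.13, 0.181 and 0.345 in that order. With the clones separated, edgeR and DESeq2 on the recovered reads called the first 3 of them and not SLC43A3 (adjusted p = 0.0937 and 0.0536).

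A stricter reading paired each TTP clone with each EV clone and asked that these 4 contrasts all pass in 1 direction. By this rule 6 members were concordantly higher (SLC6A8, SLC38A7, SLC38A9, SLC43A2, SLC7A6 and SLC43A1) and 3 concordantly lower (SLC6A9, SLC38A2 and SLC6A6). Over all genes 38.5% were concordant, 19.0% higher and 19.5% lower. With a change of at least 0.5 asked of each contrast as well, 2 members remained higher (SLC6A8 and SLC38A9) and 1 lower (SLC6A9). Over all genes these shares were 7.07% and 4.91%. In 8 members the libraries of the arms did not overlap: the 6 concordantly higher ones, SLC6A9 and SLC7A5. Over all genes 15.6% had every TTP library above and 16.2% every TTP library below every EV library. With the reads of each clone summed, so that 2 clones were set against 2, edgeR called 5 members higher (SLC6A8, SLC38A7, SLC38A9, SLC7A6 and SLC43A1) and 3 lower (SLC6A9, SLC6A6 and SLC7A5), where over all genes 14.5% were higher and 14.3% lower. SLC43A2 (0.46, edgeR adjusted p = 0.056) and SLC38A2 (-0.64, edgeR adjusted p = 0.0816) did not pass in that fit. The other 17 members, outside the concordant 9, either missed the threshold in a contrast or changed sign with the EV clone that served as control.

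**Figure D1:**
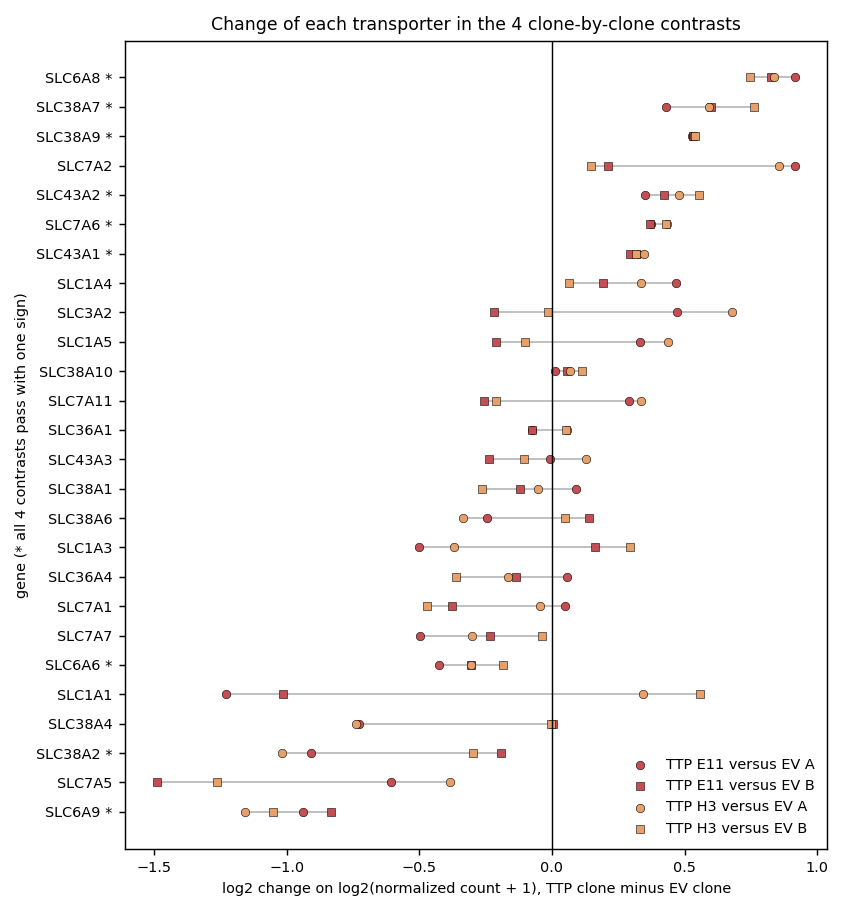
Change of each of the 26 transporters in the 4 clone-by-clone contrasts, as the difference on the log2(normalized count + 1) scale (x axis), TTP clone minus EV clone. Circles are contrasts with EV_A, squares with EV_B, and an asterisk marks the 9 members for which all 4 contrasts passed with the same sign. SLC38A9 has all 4 points between 0.53 and 0.54, while those of SLC3A2 lie on both sides of 0.

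The members span a wide range of transcript levels. Per kilobase of merged exon, SLC7A5 averaged 3443 normalized counts over the 16 libraries, SLC3A2 1725 and SLC1A5 1590, and these 3 carriers made up 61.5% of the level summed over the members. SLC43A3 (901), SLC7A1 (665), SLC38A2 (569) and SLC38A1 (519) followed. SLC43A2 at 9.46, SLC1A1 at 9.23 and SLC7A7 at 3.90 were the lowest, and the ranges of SLC43A2 and SLC1A1 over the 4 clones overlapped. In EV_A, TTP_E11 and TTP_H3 as in EV_B, SLC7A5 stood above every other member.

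**Figure D2:**
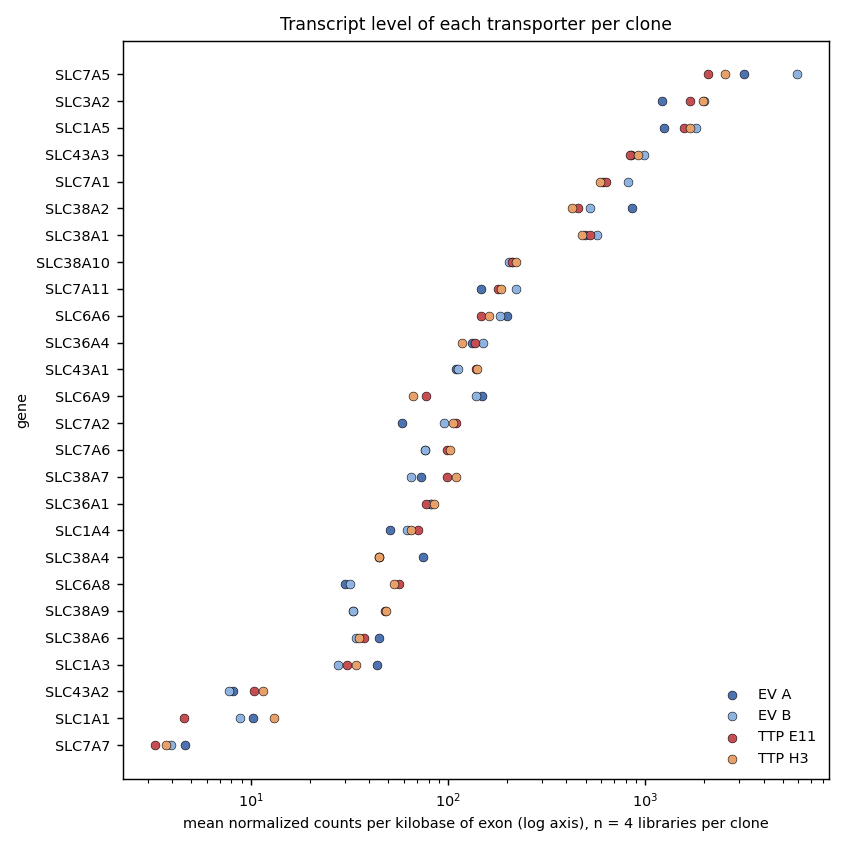
Mean transcript level of each transporter in the 4 clones, in normalized counts per kilobase of exon (x axis, log scale, n = 4 libraries per clone), ordered by the mean over all libraries. SLC7A5 is highest in every clone, and its EV_B point (5930 per kilobase) stands farthest from those of TTP_E11 (2098) and TTP_H3 (2549).

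The CD98 complex is described first. SLC7A5 (ENSG00000103257, chr16:87830023-87869488, minus strand), the LAT1 light chain, was lower in both TTP clones. Its normalized counts in replicates 1 to 4 were 15582, 15102, 15106 and 14841 in EV_A, 26495, 25804, 25719 and 34525 in EV_B, 10048, 9783, 9753 and 10234 in TTP_E11, and 13719, 14733, 6945 and 12988 in TTP_H3. All 8 TTP libraries lay below all 8 EV libraries, EV_B was far above EV_A, and the spread within TTP_H3 came mostly from its low replicate 3. The change between the arms was -0.94 ± 0.134 (SE, limma adjusted p = 3.13e-05), and by clone it was -0.61 and -1.49 for TTP_E11 against EV_A and EV_B and -0.38 and -1.26 for TTP_H3 against the same clones. The contrast of TTP_H3 with EV_A did not pass (adjusted p = 0.096), which kept SLC7A5 from the concordant members. It passed with edgeR on the recovered reads (-0.32, adjusted p = 0.0315), without replicate 2 of TTP_H3 (-0.50, limma adjusted p = 0.0429) and without both libraries that stood apart (-0.14, limma adjusted p = 2.64e-05). In that last setting the change between the arms was -0.76 and TTP_H3 stood above TTP_E11 by 0.47 on the log2 scale, against 0.22 with all libraries. The reference annotation also holds the pseudogenes SLC7A5P1 and SLC7A5P2, and the sources used here do not say how reads shared with them were counted.

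SLC3A2 (ENSG00000168003, chr11:62856102-62888875, plus strand), the heavy chain that carries the light chains to the cell surface, did not follow SLC7A5. It stood at 6357, 6335, 6339 and 6389 in EV_A, 9311, 9418, 9708 and 13025 in EV_B, 9081, 8492, 8601 and 9093 in TTP_E11, and 10192, 10620.1, 9339.9 and 10579.5 in TTP_H3 normalized counts. EV_A lay below every other library, whereas EV_B lay above TTP_E11 and overlapped TTP_H3. The change between the arms was 0.23 ± 0.062 (SE, limma adjusted p = 0.0049), but its sign with all libraries depended on the control: 0.47 and -0.22 for TTP_E11 against EV_A and EV_B and 0.68 and -0.01 for TTP_H3 against the same clones. EV_B was above EV_A by 0.69 ± 0.0877 (SE, limma adjusted p = 4.11e-05), and replicate 4 of EV_B had 1.37 times the mean of the other 3. Without both libraries that stood apart TTP_H3 was higher than EV_B by 0.14 (limma adjusted p = 2.83e-05), and TTP_E11 remained lower than EV_B, at -0.10 (limma adjusted p = 0.000759). Without replicate 4 of EV_B alone, TTP_H3 was also higher than EV_B, by 0.10 (limma adjusted p = 0.016). Without both, the difference of EV_B from EV_A was 0.58 and that of TTP_H3 from TTP_E11 was 0.25, the latter against 0.21, which had not passed, with all libraries.

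The ratio of light to heavy chain separated the arms. Per kilobase of exon, SLC7A5 over SLC3A2 was 2.67, 2.60, 2.60 and 2.54 in EV_A, 3.11, 2.99, 2.89 and 2.89 in EV_B, 1.21, 1.26, 1.24 and 1.23 in TTP_E11, and 1.47, 1.51, 0.811 and 1.34 in TTP_H3. No TTP library overlapped an EV library, and the highest TTP ratio was 1.51 against a lowest EV ratio of 2.54. The exact two-sided permutation test of 8 against 8 libraries gave p = 0.000155, its smallest possible value, or 0.00028 after Benjamini-Hochberg adjustment over the 9 ratios computed, all chosen after values had been seen. Here and for the ratios below, that test counts each culture as a unit and ignores the clone it came from. It is therefore no test over clones, of which each arm has 2. Against a single EV clone, 4 libraries against 4 cannot go below 0.0286, and each of the 4 contrasts gave this value. EV_B against EV_A gave the same exact permutation p = 0.0286, as the ratios of these clones did not overlap either. Between TTP_H3, at 1.28 ± 0.323, and TTP_E11, at 1.23 ± 0.0207 (SD, n = 4), the exact permutation test gave p = 1. This rested on replicate 3 of TTP_H3, at 0.811, a library that stood apart. Replicates 1, 2 and 4 of TTP_H3, at 1.47, 1.51 and 1.34, all lay above the highest TTP_E11 ratio, 1.26.

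**Figure D3:**
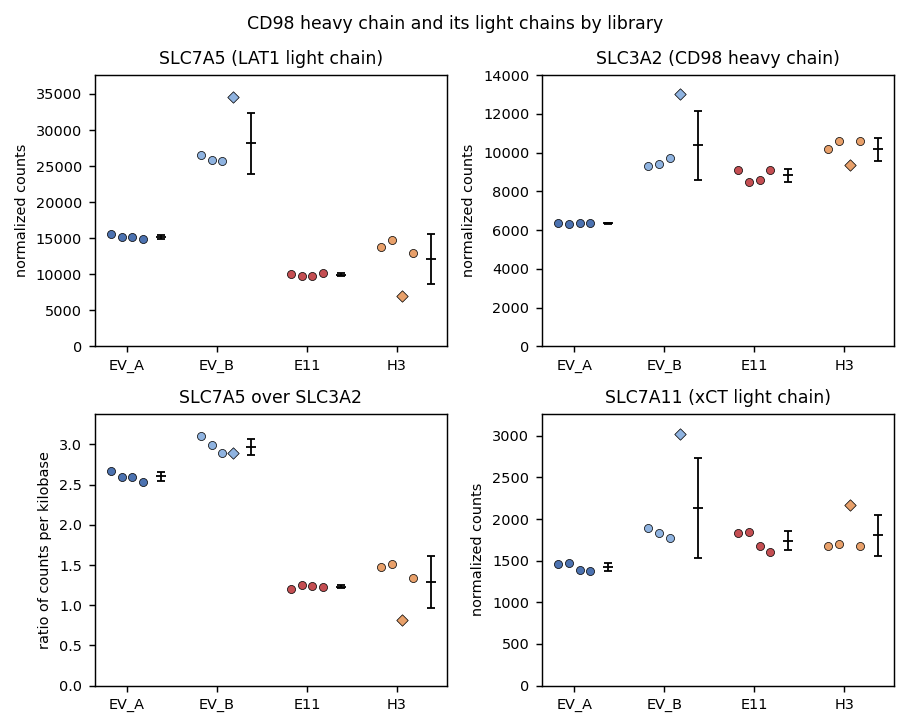
Normalized counts of SLC7A5, SLC3A2 and SLC7A11 and the ratio of SLC7A5 to SLC3A2 per kilobase of exon (y axes) in each library. Points are libraries, bars are each clone's mean ± SD (n = 4), and diamonds are replicate 4 of EV_B and replicate 3 of TTP_H3. The ratio lies between 2.54 and 3.11 in the EV libraries and between 0.811 and 1.51 in the TTP libraries.

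The other light chains moved differently. SLC7A6 (ENSG00000103064, chr16:68264516-68301823, plus strand), the y+LAT2 chain that exchanges cationic against neutral amino acids, was concordantly higher in TTP cells, at 615, 559.7, 507 and 636 in EV_A, 609.6, 539, 544 and 631 in EV_B, 771, 806, 765 and 662 in TTP_E11, and 766, 829, 747 and 785 in TTP_H3. Its TTP libraries all lay above its EV libraries, and EV_A and EV_B covered the same range. The change was 0.40 ± 0.0488 (SE, limma adjusted p = 1.71e-08), between 0.37 and 0.44 in the 4 contrasts. Its exons share bases with SLC7A6OS and AC020978.9 on the other strand, and the sources used here do not say whether counting used strand. Summed over these 2 genes the overlap was 4216 bases, where SLC7A6 has 7588 bases of merged exon. SLC7A6OS itself differed by 0.21 on the log2 scale (limma adjusted p = 0.000326), and AC020978.9 by 0.35 (limma adjusted p = 0.0202). The part of this overlap in the values of SLC7A6 was not tested.

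SLC7A11, the xCT chain that supplies cystine for glutathione, stood at 1458, 1467, 1392 and 1373 in EV_A, 1890.5, 1828, 1776 and 3025 in EV_B, 1838, 1841, 1676 and 1608 in TTP_E11, and 1673, 1698, 2169 and 1678 in TTP_H3. The 2 libraries that stood apart were each the highest of their clone, with 1.65 and 1.29 times the mean of the others. The change between the arms, 0.04 ± 0.104 (SE, limma adjusted p = 0.754), did not pass, and the sign differed with the EV clone. EV_B exceeded EV_A by 0.55 ± 0.147 (SE, limma adjusted p = 0.011), or by 0.36 without both libraries. Without both, a change of 0.08 between the arms passed (limma adjusted p = 0.00917). SLC7A7, the y+LAT1 chain, was at 23.8 ± 2.04 for EV_A, 20.3 ± 6.01 for EV_B, 16.8 ± 3.15 for TTP_E11 and 19.2 ± 1.64 for TTP_H3 (SD, n = 4 each), and no contrast passed. LAT1 thus made up a smaller share of the 4 light chains in TTP cells, 88.1% ± 0.877 in TTP_E11 and 88.8% ± 4.70 in TTP_H3, against 93.3% ± 0.233 in EV_A and 95.2% ± 0.277 in EV_B (SD, n = 4). Replicate 3 of TTP_H3 was at 81.8%. Replicates 1, 2 and 4 of TTP_H3, at 91.2%, 91.5% and 90.7%, lay above the highest TTP_E11 library, 89.3%, and below the lowest EV library, 93.1%.

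The SLC43 facilitators LAT3 (SLC43A1) and LAT4 (SLC43A2) carry branched-chain and other large neutral amino acids without exchange. Both were concordantly higher in TTP cells. SLC43A1 (ENSG00000149150, chr11:57484534-57515786, minus strand) stood at 362, 419.6, 397 and 384 in EV_A, 366, 422, 395 and 411 in EV_B, 461, 463, 488 and 546 in TTP_E11, and 492, 485, 524 and 487 in TTP_H3. Every TTP library was above every EV library. The change was 0.32 ± 0.0466 (SE, limma adjusted p = 2.92e-07), between 0.29 and 0.35 by clone. SLC43A2 (ENSG00000167703, chr17:1569267-1628886, minus strand) stood at 82.0, 80.8, 87.5 and 95.0 in EV_A, 81.4, 72, 78.0 and 97.8 in EV_B, 105, 99.1, 107 and 131 in TTP_E11, and 110.0, 117, 157 and 105 in TTP_H3, and its arms were apart by a narrow margin. The highest EV library was replicate 4 of EV_B and the highest TTP library was replicate 3 of TTP_H3. The change was 0.45 ± 0.0936 (SE, limma adjusted p = 7.51e-05). Its contrast of TTP_E11 with EV_A was 0.35 (adjusted p = 0.022) and no longer passed without replicate 1 of EV_A (0.33, limma adjusted p = 0.0515), replicate 2 of EV_A (0.32, limma adjusted p = 0.0583) or replicate 4 of TTP_E11 (0.27, limma adjusted p = 0.104).

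SLC43A3 lies next to SLC43A1 on chromosome 11, with 57.0 kb between them, yet did not share its pattern. It was at 3819 ± 141 for EV_A, 4483 ± 135 for EV_B, 3799 ± 75.4 for TTP_E11 and 4172 ± 175 for TTP_H3 (SD, n = 4 each). Its change between the arms, -0.06 ± 0.025 (SE, limma adjusted p = 0.0475), was the smallest that passed, turned to 0.02 when reads were scaled by library totals, and failed in 10 of the 16 fits that each left out 1 library, where the adjusted p was 0.064 to 0.0982. Those libraries were replicates 1 to 3 of EV_A, 3 and 4 of EV_B, 1 and 3 of TTP_E11, and 1, 2 and 4 of TTP_H3.

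The cationic carriers CAT1 (SLC7A1) and CAT2 (SLC7A2), which import arginine and lysine, moved in opposite directions. SLC7A1 was at 4705 ± 77.4 for EV_A, 6327 ± 145 for EV_B, 4868 ± 58.8 for TTP_E11 and 4565 ± 193 for TTP_H3 (SD, n = 4 each), lower, with a change of -0.21 ± 0.0227 (SE, limma adjusted p = 7.11e-10). This rested on EV_B: against EV_A the changes were 0.05 and -0.04, and neither passed (adjusted p = 0.185 and 0.231, limma). SLC7A2 was at 462 ± 34.2 for EV_A, 759 ± 108 for EV_B, 873 ± 40.0 for TTP_E11 and 837 ± 64.1 for TTP_H3, higher by 0.53 ± 0.0544 (SE, limma adjusted p = 4.81e-09). Its contrast of TTP_H3 with EV_B was 0.15 (adjusted p = 0.102) and passed without replicate 4 of EV_B (0.24, limma adjusted p = 0.00139), without replicate 3 of TTP_H3 (0.20, limma adjusted p = 0.022) and without both (0.30, limma adjusted p = 2.1e-05). The ratio of SLC7A2 to SLC7A1 per kilobase was 0.0956 ± 0.00594 for EV_A, 0.117 ± 0.0145 for EV_B, 0.175 ± 0.00662 for TTP_E11 and 0.178 ± 0.00734 for TTP_H3 (SD, n = 4). Its lowest TTP library, at 0.168, was above its highest EV library, at 0.137 (exact permutation p = 0.000155, 0.00028 over the 9 ratios). EV_B also differed from EV_A in this ratio (exact permutation p = 0.0286).

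Among the SLC1 members, SLC1A5 (ASCT2) exchanges glutamine and other neutral amino acids with sodium. Its normalized counts were 4077, 4139, 4273 and 4228 in EV_A, 5912, 5967, 6077 and 6379 in EV_B, 5177, 5176, 5240.2 and 5439.8 in TTP_E11, and 5524, 6133, 5485 and 5545 in TTP_H3. EV_A was lowest, and EV_B lay above the TTP libraries other than replicate 2 of TTP_H3. The change between the arms was 0.11 ± 0.025 (SE, limma adjusted p = 0.000142), with 0.33 and -0.21 for TTP_E11 against EV_A and EV_B and 0.44 and -0.10 for TTP_H3 against the same clones. It therefore changed sign with the EV clone, although without both libraries that stood apart TTP_H3 against EV_B no longer passed (-0.06, limma adjusted p = 0.0952). With SLC7A5 lower, the ratio of SLC1A5 to SLC7A5 per kilobase was higher in TTP_E11 (0.752 ± 0.0133) and TTP_H3 (0.725 ± 0.267) than in EV_A (0.393 ± 0.0151) and EV_B (0.312 ± 0.0333) (SD, n = 4 libraries, exact permutation p = 0.000155, 0.00028 over the 9 ratios). That ratio also differed between EV_B and EV_A (exact permutation p = 0.0286). The mean of TTP_H3 rested on replicate 3, at 1.125, a library that stood apart. Replicates 1, 2 and 4 of TTP_H3, at 0.573, 0.593 and 0.608, lay below the lowest TTP_E11 ratio, 0.734, and above the highest EV ratio, 0.406.

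SLC1A4 (ASCT1), which exchanges serine and alanine, was at 355 ± 15.3 for EV_A, 429.8 ± 34.3 for EV_B, 491 ± 28.3 for TTP_E11 and 450.5 ± 49.6 for TTP_H3 (SD, n = 4 each), higher by 0.27 ± 0.051 (SE, limma adjusted p = 2.67e-05). The contrast of TTP_H3 with EV_B was 0.06 (limma adjusted p = 0.461). SLC1A3, a glutamate importer, was at 274 ± 7.84 for EV_A, 174 ± 19.0 for EV_B, 194 ± 12.5 for TTP_E11 and 216 ± 42.5 for TTP_H3. Its change was -0.10 (limma adjusted p = 0.241), lower against EV_A in both TTP clones (-0.50 and -0.37) and higher than EV_B in TTP_H3 (0.29, limma adjusted p = 0.0234). The call against EV_B was lost without replicate 4 of EV_B (0.21, limma adjusted p = 0.102) but held without both libraries that stood apart (0.37, limma adjusted p = 0.000423). The change of TTP_H3 from EV_A was -0.21 (limma adjusted p = 0.0406) without replicate 3 of TTP_H3.

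SLC1A1 (EAAC1), an importer of glutamate and cysteine, was the member in which the TTP clones differed most. It stood at 39.8, 37.1, 46.8 and 40.8 in EV_A, 35.2, 36, 40.0 and 30.1 in EV_B, 17.6, 7.85, 24.1 and 24.0 in TTP_E11, and 63.6, 53.8, 43.9 and 49.6 in TTP_H3. All TTP_E11 libraries lay below and all TTP_H3 libraries except replicate 3 lay above every EV library. TTP_H3 exceeded TTP_E11 by 1.57 ± 0.238 (SE, limma adjusted p = 2.23e-05). The changes against both EV clones were -1.12 in TTP_E11 (adjusted p = 1.7e-05) and 0.45 in TTP_H3 (adjusted p = 0.0549), and these comparisons share their controls. At 7.85 to 63.6 normalized counts the values are low. The change of TTP_H3 against both EV clones passed with edgeR (0.47, adjusted p = 0.0185) and DESeq2 (0.47, adjusted p = 0.0208) on the recovered reads, and without both libraries that stood apart (0.50, limma adjusted p = 0.0417).

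The system A carriers SLC38A1 (SNAT1), SLC38A2 (SNAT2) and SLC38A4 (SNAT4) take up small neutral amino acids with sodium, and SNAT2 is known for its induction when amino acids are scarce. Their genes lie in a row on chromosome 12, with gaps of 88.2 and 391.9 kb. All 3 were lower between the arms. SLC38A2 (ENSG00000134294, chr12:46358189-46372867, minus strand) stood at 5467, 5752, 5954 and 5601 in EV_A, 3620.2, 3809, 3449.6 and 3015 in EV_B, 2990.3, 3173, 3211 and 2767 in TTP_E11, and 2984, 2752, 2555 and 2982 in TTP_H3. EV_A stood far above the rest, and replicate 4 of EV_B lay within the range of TTP_E11, so the arms were not apart. The change was -0.60 ± 0.0491 (SE, limma adjusted p = 1.38e-08), with -0.91 and -0.19 for TTP_E11 against EV_A and EV_B and -1.02 and -0.30 for TTP_H3 against the same clones. The difference of EV_B from EV_A was -0.72 ± 0.0694 (SE, limma adjusted p = 9.75e-07).

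The concordant call of SLC38A2 rested on the small contrast of TTP_E11 with EV_B (adjusted p = 0.0268). That contrast did not pass without replicate 1 of EV_B (-0.17, limma adjusted p = 0.0718), replicate 2 of EV_B (-0.14, limma adjusted p = 0.0728), replicate 1 of TTP_E11 (-0.18, limma adjusted p = 0.0577) or replicate 4 of TTP_E11 (-0.15, limma adjusted p = 0.0805), nor with reads scaled by library totals (-0.09, limma adjusted p = 0.256).

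SLC38A4 stood at 274, 278, 359 and 337 in EV_A, 201, 185, 192 and 166 in EV_B, 183, 189, 182 and 192 in TTP_E11, and 173, 199, 171 and 200.4 in TTP_H3. EV_A was above all other libraries, and EV_B, TTP_E11 and TTP_H3 covered nearly the same range. The change was -0.37 ± 0.066 (SE, limma adjusted p = 1.03e-05), but against EV_B it was 0.01 and -0.01 (limma adjusted p = 0.967 for each). SLC38A1 was at 4960.1 ± 63.7 for EV_A, 5742 ± 120.0 for EV_B, 5289.5 ± 302 for TTP_E11 and 4779 ± 171 for TTP_H3 (SD, n = 4 each), lower, with a change of -0.09 ± 0.0253 (SE, limma adjusted p = 0.00285). This rested on EV_B: against EV_A it was higher in TTP_E11 (0.09, limma adjusted p = 0.0268) and did not pass in TTP_H3 (-0.05, limma adjusted p = 0.186), and TTP_E11 against both EV clones gave -0.01 (limma adjusted p = 0.703). With reads scaled by library totals the call was lost (-0.0071, limma adjusted p = 0.815). As SLC38A1 was higher and SLC38A2 lower in EV_B than in EV_A, their ratio per kilobase was 0.575 ± 0.0141 in EV_A and 1.10 ± 0.114 in EV_B, against 1.15 ± 0.0364 in TTP_E11 and 1.12 ± 0.103 in TTP_H3. By the exact permutation test it differed between EV_B and EV_A (p = 0.0286, the smallest for 4 libraries against 4), and p was 0.314 for TTP_E11 and 0.657 for TTP_H3 against EV_B.

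SLC38A9, SLC38A7 and the SLC36 members act at the lysosome, where SLC38A9 senses arginine and signals to mTORC1 and SLC38A7 exports glutamine. SLC38A9 (ENSG00000177058, chr5:55625845-55773194, minus strand) stood at 291, 278, 317 and 287 in EV_A, 261, 295, 314 and 299.96 in EV_B, 404, 435, 450.4 and 403 in TTP_E11, and 493, 464, 365 and 391 in TTP_H3. All TTP libraries were above all EV libraries, and EV_A and EV_B had the same mean. The change was 0.53 ± 0.0576 (SE, limma adjusted p = 7.37e-10), between 0.53 and 0.54 in the 4 contrasts. SLC38A7 (ENSG00000103042, chr16:58665109-58685104, minus strand) stood at 550.0, 529, 499.7 and 469 in EV_A, 431, 466, 440.5 and 481 in EV_B, 727, 678, 696 and 659 in TTP_E11, and 777, 772, 751 and 784 in TTP_H3, with the arms apart. The change was 0.60 ± 0.04 (SE, limma adjusted p = 9.76e-15), larger against EV_B than against EV_A in both TTP clones. The difference of EV_B from EV_A was -0.17 ± 0.0566 (SE, limma adjusted p = 0.0182), a call that was lost without replicate 1 or 2 of EV_A or replicate 1 or 3 of EV_B (limma adjusted p from 0.0524 to 0.0857).

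SLC36A1 (PAT1), which exports small amino acids with protons, was at 573 ± 37.4 for EV_A, 574 ± 35.6 for EV_B, 544 ± 19.2 for TTP_E11 and 595 ± 24.6 for TTP_H3 (SD, n = 4 each), and no contrast passed. SLC36A4 stood at 1217, 1314, 1366 and 1227 in EV_A, 1421, 1457, 1498 and 1480.1 in EV_B, 1403, 1333, 1371 and 1230.5 in TTP_E11, and 1169, 1164, 1033 and 1199.7 in TTP_H3. TTP_H3 lay below every other library and EV_B above every other library. It was lower, with a change of -0.15 ± 0.0349 (SE, limma adjusted p = 0.000287), of which -0.26 in TTP_H3 passed and -0.04 in TTP_E11 did not. The call was lost with reads scaled by library totals (-0.07, limma adjusted p = 0.0706) and with EV_A alone as control (-0.05, limma adjusted p = 0.267). SLC38A6 and SLC38A10, whose substrates are less well defined, were at 229.6 ± 9.11 for EV_A, 176 ± 16.8 for EV_B, 194 ± 13.8 for TTP_E11 and 183 ± 23.2 for TTP_H3 and at 1631 ± 60.8 for EV_A, 1579 ± 32.5 for EV_B, 1643 ± 78.9 for TTP_E11 and 1713 ± 163 for TTP_H3. Neither passed between the arms (limma adjusted p = 0.199 and 0.133). SLC38A10 was higher without both libraries that stood apart (0.10, limma adjusted p = 0.00167), without replicate 3 of TTP_H3 alone (0.10, limma adjusted p = 0.00255) and with reads scaled by library totals (0.14, limma adjusted p = 0.00108).

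The SLC6 carriers, which move substrate with sodium and chloride, held the largest concordant change in each direction. SLC6A8 (ENSG00000130821, chrX:153688099-153696593, plus strand), the creatine transporter, stood at 136, 182, 167 and 176 in EV_A, 165, 182, 183 and 171 in EV_B, 285, 306, 306 and 353 in TTP_E11, and 286, 325, 297 and 272 in TTP_H3. The lowest TTP library was above the highest EV library, and the clones of each arm covered similar ranges. The change was 0.83 ± 0.0645 (SE, limma adjusted p = 3.51e-13), between 0.75 and 0.92 by clone. In the authors' deposited table it is 0.83. SLC6A8 is also known to have a near-identical pseudogene, SLC6A10P, and the sources used here do not say how reads shared with it were counted.

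SLC6A9 (ENSG00000196517, chr1:43991500-44031467, minus strand), the glycine transporter GlyT1, stood at 826, 744, 725 and 788 in EV_A, 745, 736, 727 and 655 in EV_B, 389.9, 433, 375 and 408 in TTP_E11, and 362, 380.3, 307 and 332 in TTP_H3. No TTP library reached an EV library. The change was -0.996 ± 0.0469 (SE, limma adjusted p = 1.14e-18), from -0.83 to -1.16 by clone, and in the authors' deposited table it is -0.99. The difference of TTP_H3 from TTP_E11 was -0.22 ± 0.0664 (SE, limma adjusted p = 0.0278), a difference that did not pass without replicate 2 or 4 of TTP_E11 or replicate 3 or 4 of TTP_H3 (limma adjusted p from 0.0643 to 0.113), nor without both libraries that stood apart (-0.16, limma adjusted p = 0.0507). CCDC24, which shares exonic bases with SLC6A9 on the other strand, changed by -0.25 (limma adjusted p = 0.0246).

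SLC6A6 (ENSG00000131389, chr3:14402576-14489349, plus strand), the taurine transporter, stood at 1621, 1699.7, 1670.5 and 1588 in EV_A, 1537, 1379.7, 1447 and 1704 in EV_B, 1234, 1264, 1172 and 1222 in TTP_E11, and 1284, 1392, 1389 and 1258 in TTP_H3. Every TTP_E11 library was below every EV library, whereas replicates 2 and 3 of TTP_H3 reached above the lowest EV_B library. The change was -0.31 ± 0.0356 (SE, limma adjusted p = 3.58e-09), with -0.43 and -0.31 for TTP_E11 against EV_A and EV_B and -0.31 and -0.19 for TTP_H3 against the same clones. With reads scaled by library totals the contrast of TTP_H3 with EV_B was -0.09 (limma adjusted p = 0.124) and the concordant call was lost.

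**Figure D4:**
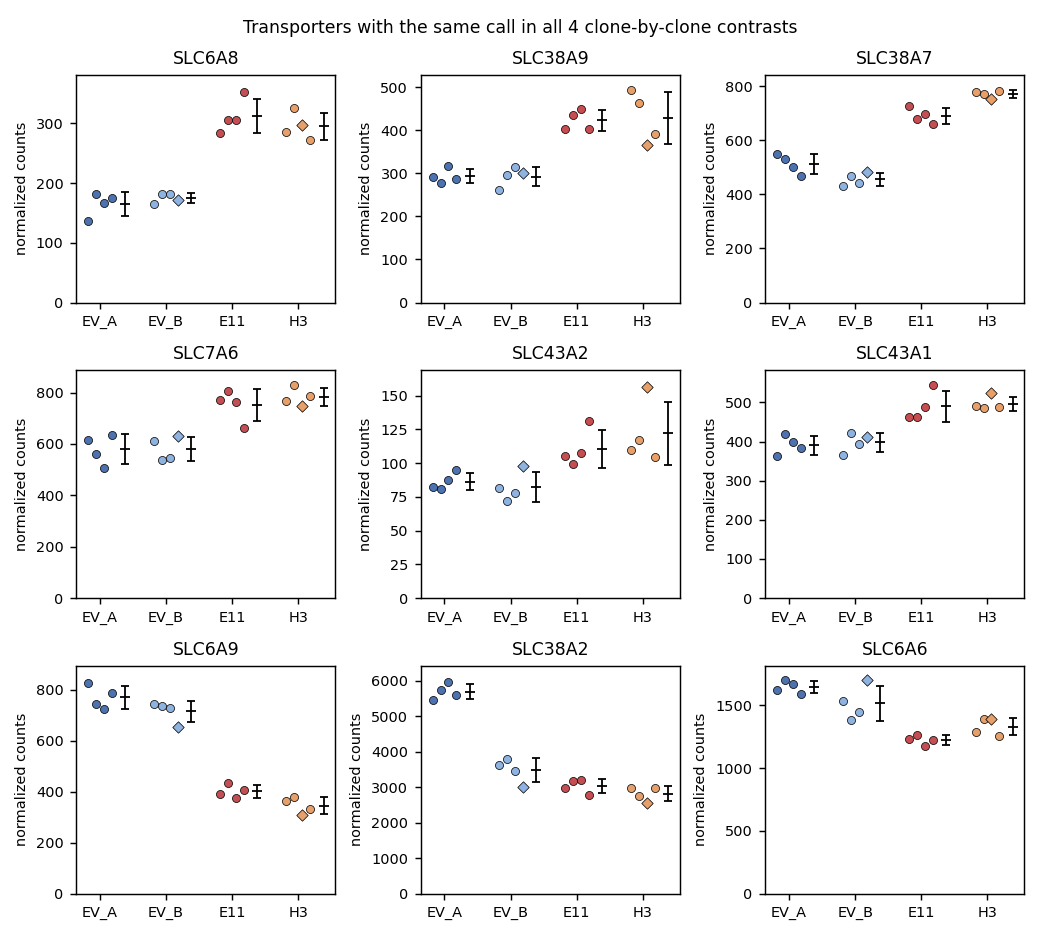
Normalized counts per library (y axes, from 0) of the 9 transporters whose 4 clone-by-clone contrasts all passed with the same sign. Points are libraries, bars each clone's mean ± SD (n = 4), and diamonds replicate 4 of EV_B and replicate 3 of TTP_H3. The arms do not overlap in the 6 higher members or in SLC6A9, whereas they overlap in SLC38A2 and SLC6A6.

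Differences between clones of 1 arm were examined as the background measured in the same way. Between the empty-vector clones, 15 of the 26 members passed, 10 higher and 5 lower in EV_B, or 57.7%. Over all genes 36.8% passed, 20.2% higher and 16.6% lower, and the higher share of all calls was 54.9%, or 44.8% with reads scaled by library totals. The higher members were SLC7A5, SLC3A2, SLC7A11, SLC1A5, SLC1A4, SLC7A1, SLC7A2, SLC38A1, SLC43A3 and SLC36A4, and the lower ones were SLC38A4, SLC38A2, SLC1A3, SLC38A6 and SLC38A7. The largest were SLC7A5 at 0.88, SLC38A4 at -0.73 and SLC38A2 at -0.72. With both libraries that stood apart left out, 10 were higher and 6 lower. For SLC7A5 the EV clones thus differed by about as much as the arms did (-0.94).

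Between the TTP clones 6 members passed: SLC1A1, SLC1A5 and SLC43A3 were higher and SLC36A4, SLC38A1 and SLC6A9 lower in TTP_H3. Over all genes 11.7% passed, 6.35% higher and 5.32% lower. Besides SLC1A1, these differences were small, from -0.23 in SLC36A4 to 0.13 in SLC43A3. That of SLC1A5, 0.11 (adjusted p = 0.0422, limma), was lost in 9 of the 16 fits that each left out 1 library, with an adjusted p from 0.0502 to 0.199. Those libraries were replicates 2 and 4 of EV_A, 2 and 3 of EV_B, 1 to 3 of TTP_E11, and 2 and 4 of TTP_H3. That of SLC38A1 (-0.15) was lost without replicate 2 of TTP_E11 (-0.11, limma adjusted p = 0.0543). The number of higher members was 5 without replicate 4 of EV_B, 7 without replicate 3 of TTP_H3 and 8 without both, and the number of lower ones was 1 without replicate 2 of TTP_E11. Each TTP clone was also set against both EV clones, and these comparisons share their controls. In that reading 8 members were higher and 8 lower in TTP_E11, where 64.6% of all genes passed, 32.6% higher and 32.0% lower. In TTP_H3 10 were higher and 8 lower, where 64.7% of all genes passed, 32.7% higher and 32.0% lower.

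Several of these carriers are known as ATF4 targets, and the motif TGATGNAA of the CCAAT-enhancer-binding and ATF response element (N is any base) was searched on both strands of RefSeq promoter windows, from 250 bases before to 50 after each gene start (GRCh38.p14). Of the members, 22 had an entry, with 40 windows. The motif stood in 6 of these windows (15%), each in another gene, and in 3.62% of all 35116 windows. The matches are shown in capitals within 30 bases, on the strand that reads the motif.
SLC1A3, chr5:36596357-36596386, plus strand: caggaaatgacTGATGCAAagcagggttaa
SLC1A4, chr2:64989381-64989410, minus strand: ccggctggagaTGATGCAAacgggagccgc
SLC1A5, chr19:46784893-46784922, minus strand: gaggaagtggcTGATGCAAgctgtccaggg
SLC38A1, chr12:46266502-46266531, minus strand: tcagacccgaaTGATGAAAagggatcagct
SLC3A2, chr11:62881719-62881748, minus strand: ggagcTGATGTAAggagtcctgcacattac
SLC7A1, chr13:29595663-29595692, minus strand: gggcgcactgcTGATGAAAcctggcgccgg
Of these 6 genes, 5 were higher and 1, SLC1A3, was lower in EV_B than in EV_A, with a median of 0.35 on the log2 scale. Of the 279 listed genes with the motif 29% were higher and 19% lower in that contrast, with a median of 0.05, and of the 10109 with a window and no motif 22.3% and 17.4%, with a median of 0.01. The search was made with the members' values in this contrast known, so the count is a description. Between the arms 3 of the 6 were higher and 2 lower, with a median of 0.01, and 44.4% and 32.6% of all genes with the motif, with a median of 0.06. SLC1A3, SLC1A4, SLC1A5, SLC38A1, SLC3A2 and SLC7A1 share these letters and no more is read from them.

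Other promoter motifs were counted in the same windows. TGACNNNGC, the core of the antioxidant response element, stood in 7 of the 40 member windows (17.5%) and in 13.3% of all windows. CACGTG, the E-box, stood in 6 member windows (15%) and in 7.26% of all windows. SLC1A5, SLC7A5 and SLC7A7 held both of these motifs. The 3 motifs do not contain one another, and windows of 1 gene can overlap.

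The heptamer TATTTAT was present in the 3′ UTR of 12 of the 26 members (46.2%) and of 38.7% of the 12598 listed genes with an annotated 3′ UTR. Over genes whose 3′ UTR length fell within the interquartile range of the members' lengths, from 1258 to 5084 bases, the share was 43.5%. The members' 46.2% covers all their lengths, also those outside this range. Members held 0.264 sites per kilobase of 3′ UTR and all genes 0.276. SLC7A11 had the most with 5, followed by SLC38A1 with 4. With the longest annotated 3′ UTR of each gene instead of the merged one, 12 members held it as well.

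Of the 12 members with the heptamer, 2 were higher (SLC7A2 and SLC7A6) and 6 lower (SLC7A5, SLC38A2, SLC6A6, SLC7A1, SLC36A4 and SLC38A1) between the arms, with a median of -0.13. Of the 14 without it, 8 were higher and 3 lower, with a median of 0.17. Over all genes the same split gave 27.5% higher and 48.8% lower with a median of -0.10 for the 4870 genes with the heptamer, and 45.1% higher and 29.2% lower with a median of 0.07 for the 7728 without it. The members' direction is that of all genes, and nothing particular to the carriers was tested. Exceptions stood on both sides. SLC6A9, the most strongly lowered member, had no heptamer, and SLC7A6, with the 2 sites shown above, was concordantly higher.

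**Figure D5:**
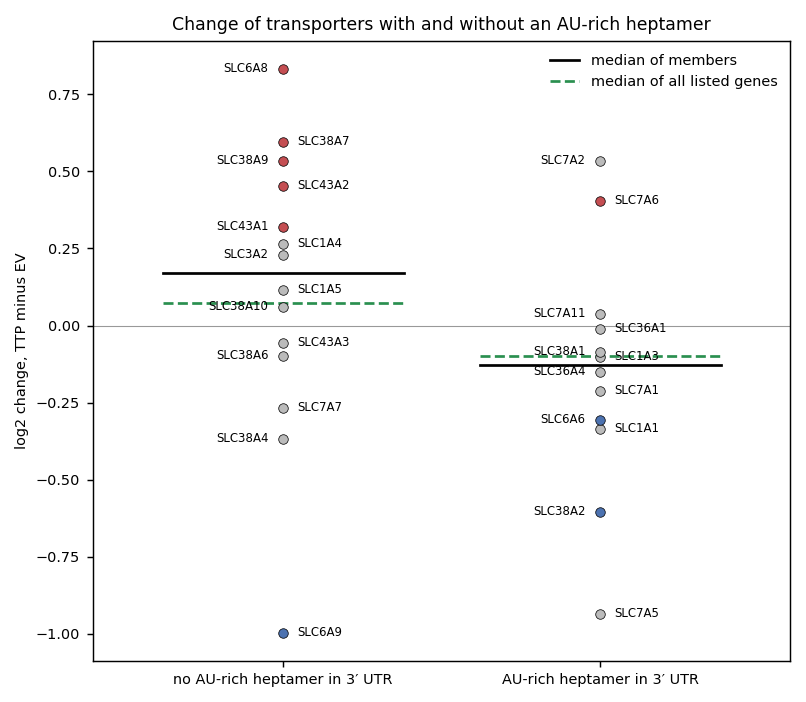
Log2 change between the arms (y axis, TTP minus EV) of the members without (left, 14 genes) and with (right, 12 genes) the heptamer TATTTAT in the 3′ UTR. Each point is a gene, red and blue points are the concordantly higher and lower members, solid lines are the members' medians (0.17 and -0.13) and dashed lines those of all listed genes (0.07 and -0.10).

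Other genes of amino acid handling were taken from lists of textbook members, with the carriers above removed, and some genes stand on more than 1 list. For every list below, the shares over all genes were 35.4% higher and 34.6% lower between the arms. Concordantly higher were 19.0% of all genes and concordantly lower 19.5%. Of 37 measured genes of the ATF4 response, 15 were higher and 13 lower between the arms, with a median of 0.03, and 2 were concordantly higher and 9 lower. Between EV_B and EV_A 22 were higher and 3 lower, with a median of 0.20, where over all genes 20.2% were higher and 16.6% lower. SESN2, a leucine sensor induced by ATF4, was at 236 ± 15.8 for EV_A, 269 ± 29.3 for EV_B, 417.7 ± 18.5 for TTP_E11 and 473 ± 28.8 for TTP_H3 (SD, n = 4 each), higher by 0.82 ± 0.0539 (SE, limma adjusted p = 6.04e-15). DDIT4 (REDD1), an inhibitor of mTORC1, was at 2426 ± 146 for EV_A, 2486 ± 316 for EV_B, 1102 ± 19.1 for TTP_E11 and 1117 ± 53.5 for TTP_H3, lower, with a change of -1.14 ± 0.0483 (SE, limma adjusted p = 4.89e-14).

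The list of lysosomal amino acid sensing by mTORC1 had 16 higher and 11 lower of 40 measured genes, with a median of -0.02. RHEB, the GTPase that activates mTORC1, was at 5611 ± 164 for EV_A, 6017 ± 55.5 for EV_B, 2868 ± 83.0 for TTP_E11 and 2870.0 ± 149.8 for TTP_H3 (SD, n = 4 each), lower, with a change of -1.02 ± 0.0249 (SE, limma adjusted p = 6.83e-26), and RRAGC, a Rag GTPase, was lower, with a change of -0.40 ± 0.0368 (SE, limma adjusted p = 2.41e-11). NPRL2 of the same list was higher by 0.42 ± 0.0568 (SE, limma adjusted p = 8.6e-08), and SESN2, which stands on this list too, was higher by 0.82. Amino acid and peptide carriers of other families had 10 higher and 5 lower of 18. Of these, the lysosomal exporters CTNS, for cystine, and PQLC2, for cationic amino acids, were higher by 0.60 ± 0.035 (SE, limma adjusted p = 2.93e-16) and 0.43 ± 0.0386 (SE, limma adjusted p = 1.3e-11). SLC17A5, the lysosomal exporter of sialic acid, was lower, with a change of -0.43 ± 0.0381 (SE, limma adjusted p = 1.1e-10).

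Glutamine, cystine and glutathione metabolism had 6 higher and 14 lower of 25 measured genes, with a median of -0.16, and 3 were concordantly higher and 9 lower. GCLM, a subunit of the first enzyme of glutathione synthesis, was lower, with a change of -1.14 ± 0.0448 (SE, limma adjusted p = 3.57e-17), and TXNRD1, thioredoxin reductase, a change of -0.92 ± 0.0271 (SE, limma adjusted p = 1.43e-22). SLC7A11, which supplies the cystine for that synthesis, did not pass. CHAC1, also on this list, was higher by 0.69 ± 0.107 (SE, limma adjusted p = 8.05e-07).

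Branched-chain amino acid breakdown had 9 higher and 4 lower of 15 genes, and PPM1K, the phosphatase that activates its dehydrogenase complex, was higher by 0.58 ± 0.0479 (SE, limma adjusted p = 1.69e-12). HIBADH, DLD and DBT were lower, with changes of -0.57 ± 0.0324, -0.43 ± 0.0295 and -0.31 ± 0.0423 (SE, limma adjusted p = 1.5e-16, 1.74e-14 and 6.72e-08). Arginine, proline and polyamine metabolism had 10 higher and 5 lower of 16. ASS1, which makes the precursor of arginine, was at 373 ± 24.5 for EV_A, 342 ± 69.5 for EV_B, 762 ± 26.9 for TTP_E11 and 713 ± 35.3 for TTP_H3 (SD, n = 4 each), higher by 1.06 ± 0.0776 (SE, limma adjusted p = 1.16e-09), and ARG2, an arginase, was higher by 0.72 ± 0.101 (SE, limma adjusted p = 4.3e-07). OAZ1 of that list was lower, with a change of -0.71 ± 0.024 (SE, limma adjusted p = 1.98e-22). Of 14 partners and regulators of the carriers, 4 were higher and 7 lower. HIF1A, whose product induces several carriers in hypoxia, was lower, with a change of -0.92 ± 0.0292 (SE, limma adjusted p = 1.02e-21), and CD44, which is known to hold xCT at the cell surface, was lower, with a change of -0.55 ± 0.022 (SE, limma adjusted p = 1.71e-20). EPAS1 was lower as well, with a change of -0.89 ± 0.0838 (SE, limma adjusted p = 3.39e-07), whereas MYC was higher by 0.70 ± 0.026 (SE, limma adjusted p = 2.91e-21).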

How the data were processed

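RNA-seq was measured in 16 libraries of MDA-MB-231 clones, whose groups follow the library names in the descriptions. Tools named in the submitters' processing notes are DESeq2, STAR 2.5.2b, Subread 1.5.2 with featureCounts, and Trimmomatic 0.36, with the build GRCh38. Settings and the use of strand were not given in the sources used here. As deposited, the table has a normalized signal per gene and library, by its values the read count over 1 size factor per library, so that whole reads could be recovered (100% of values within 0.001, a weaker check in replicates 1 and 3 of TTP_H3, where 1 read is worth about 1). Further columns are, per the file headers, a log2 fold change, a p-value and its adjusted form from the authors. Genes below some level are not listed, and the smallest mean was 9.68 normalized counts.

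The test was limma 3.58.1 (R 4.3.3, robust trend) on log2(normalized count + 1) of all 14857 genes and 16 libraries with 4 clone groups, without a filter. Benjamini-Hochberg adjustment was used at 0.05, and the pipeline was tested on simulated data. There, 91% of 100 genes changed 1.5-fold were called between the arms, and 6.86% of the calls were unchanged genes. The simulated clones of an arm shared 1 level per gene. Differences between clones, which passed in 36.8% of genes for EV_B against EV_A, were therefore not part of that test. This scale understates fold changes at low counts. Alternatives were the count models of edgeR 4.0.16 and of DESeq2 1.42.0 run on recovered reads, other scalings, pseudocounts, filters and controls, the replicate number as a block, reads summed per clone and leaving out libraries. Positions, exon lengths and 3′ UTRs came from GENCODE 29, which held all 26 members and may differ from the annotation of the authors, and promoters from RefSeq. The members and lists were chosen with earlier results of these data known. Values per library are given for the concordant members, for SLC7A5, SLC3A2, SLC7A11, SLC1A5, SLC38A2 and SLC43A2, and for the 3 members with the largest change between the clones of each arm. Of the lists, at most 4 of the concordant genes with the largest change are named.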

Additional observations from a re-analysis of the deposited data

Results flagged for a closer look

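Of 104 groups, each a member in the 4 libraries of a clone, 6 held a library far from the other 3, where chance alone would give such a gap in about 1 of 20 groups. The groups share libraries, however: 3 of the 6 were flagged in replicate 4 of EV_B and 2 in replicate 3 of TTP_H3, the libraries that stood apart. That rate, which holds for independent groups, is therefore no measure for them, and they are listed as a description. In replicate 4 of EV_B, SLC7A5 stood at 34525 normalized counts, SLC3A2 at 13025 and SLC7A11 at 3025, each above the other EV_B libraries. In replicate 3 of TTP_H3, SLC7A11 at 2169 and SLC43A3 at 4434 stood above the rest of the clone. In replicate 2 of TTP_H3, SLC1A5 stood at 6133.

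The effects of the TTP clones, measured against the same EV clones, differed by the test of TTP_H3 against TTP_E11 in 6 members. The log2 difference, TTP_H3 minus TTP_E11, was 1.57 for SLC1A1, 0.11 for SLC1A5, -0.23 for SLC36A4, -0.15 for SLC38A1, 0.13 for SLC43A3 and -0.22 for SLC6A9.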

How the results depend on the processing

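Under all alternatives run, the counts of members and of all genes called stayed within 1.5 times the reported ones with the exceptions below, for which the cause was not tested. With reads scaled by library totals, which moved the median change of all genes by 0.08 on the log2 scale, 1 member was concordantly lower (SLC6A9), and SLC43A3 turned to 0.0245. With reads summed per clone, edgeR called 4280 genes between the arms, 5 members higher and 3 lower, against 10405, 10 and 9. A change of at least 0.5 in each contrast left 1780 concordant genes, 2 members higher and 1 lower, against 5713, 6 and 3. With EV_A alone as control SLC38A1 turned to 0.0184, SLC43A3 to 0.0601 and SLC7A1 to 0.0024, and with EV_B alone SLC1A5 turned to -0.16 and SLC3A2 to -0.12. Without both libraries that stood apart, an alternative chosen after seeing the data, 2851 genes differed between TTP_H3 and TTP_E11 and 8 members were higher, against 1735 and 3. Leaving out each library in turn gave 10150 to 10517 genes, 10 to 11 members higher and 8 to 10 lower between the arms, and 5431 to 5805 concordant genes, 5 to 7 members higher and 2 to 4 lower. For EV_B against EV_A it gave 4808 to 6006 genes, 10 members higher and 4 to 6 lower, and for TTP_H3 against TTP_E11 1118 to 2261 genes, 2 to 7 members higher and 1 to 4 lower. For TTP_E11 against EV it gave 9075 to 9882 genes, 8 to 10 and 8 to 9 members, and for TTP_H3 against EV 9164 to 9686 genes, 9 to 12 and 8 to 9 members. The replicate number as a block gave 10354 genes, 10 members higher and 8 lower between the arms, since SLC43A3 no longer passed (limma adjusted p = 0.0503), and 6 and 3 concordant members as before. The deviations of the 24 same-numbered pairs correlated between -0.088 and 0.096, and 1 of 16 libraries was closest to its own number. These deviations thus showed no pairing by number. Whether libraries of 1 number were handled together cannot be read from them. The depth limits SLC7A7, SLC1A1 and SLC43A2, which had the fewest reads per length.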

Other observations

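In replicate 4 of EV_B, 5 of the 26 members (SLC7A11, SLC3A2, SLC7A5, SLC7A2 and SLC43A2) had over 1.25 times the mean of the other 3 libraries, or 19.2%, and 6.22% of all listed genes did. SLC1A3 and SLC7A7 had under 0.8 times that mean, or 7.69%, and 10.3% of all listed genes did. Of the 37 genes of the ATF4 response only DDIT3 was over 1.25 times, while DDIT4 and VLDLR were under 0.8 times. Among 25 genes of glutamine, cystine and glutathione metabolism GCLM, NQO1, GPT and GLUD2 were over 1.25 times.

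In replicate 3 of TTP_H3, SLC7A11 and SLC43A2 were again over 1.25 times the mean of the other 3 libraries, at 1.29 and 1.42 times. SLC7A5, SLC1A3 and SLC1A1 were under 0.8 times, and SLC7A5 had 0.503 times that mean. SLC7A5 thus moved up in the one library that stood apart and down in the other, while SLC7A11 and SLC43A2 moved up in both. The members over 1.25 times made up 7.69% and those under 0.8 times 11.5%, near the 8.64% and 9.72% of all listed genes. These comparisons were chosen after the values had been seen, and no cause was tested.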
